A study of Mus musculus with 4 samples.

Results

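The DEAD and DEAH box RNA helicases were examined in 4 RNA-seq libraries of mouse T-helper 2 cells. Members were the genes whose symbol begins with Ddx or Dhx and a digit, with pseudogenes and genes on chromosomes X and Y left out. The rule gave 52 of 50600 genes, 35 with a Ddx symbol and 17 with a Dhx symbol, on 15 chromosomes. It used names only, and no measured value entered it. Of the 52 genes, 51 code for protein. Dhx58os, a long noncoding RNA gene on the strand opposite Dhx58, matched the rule by its symbol and is no helicase. Ddx3x and Ddx3y, the pair on the sex chromosomes, were not analysed here.

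The study holds 1 group of libraries, biological replicates 1 to 4 of primary T-helper 2 cells from C57BL/6NJ mice, with no control and no other cell type. T-helper 2 cells are CD4 T cells known for secreting interleukin-4 and related cytokines. The labels give neither age, sex nor time point, and only paths in the file headers name 24 hours. All 4 libraries carry the same donor record, and nothing says that these were different mice. The p-values here thus reflect spread between these samples alone, and some of it may be technical.

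DEAD and DEAH box proteins are enzymes that use ATP to unwind or remodel RNA and RNA-protein complexes. They take their names from amino acids of a short stretch that binds and cleaves ATP, called motif II. DEAD box members mostly open short helices locally, while many DEAH box members travel along an RNA strand, and DEAH proteins drive successive steps of splicing. Activated T cells are known for building many ribosomes and for making much mRNA, work in which these enzymes take part.

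The codons of motif II show what the members share in sequence. They were sought in the longest complete coding sequence of each gene (GENCODE M21, build GRCm38) as 3 codons for bulky or hydrophobic residues, then 1 for aspartate, 1 for glutamate, any codon, and a last codon for aspartate (DEAD type) or histidine (DEAH type). Such a stretch stood once in 50 of the 51 coding members and in 1.37% of 21594 coding genes, and Dhx32 had no match. The last codon was of the DEAD type in 32 genes with a Ddx symbol. It was of the DEAH type in 15 genes with a Dhx symbol and in 3 with a Ddx symbol, Ddx11, Ddx58 and Ddx60. The third codon varied more: 26 members spelled DEAD and 9 DEAH, 3 spelled DEVD (Ddx21, Ddx28 and Ddx50), 5 DEVH, 2 DECD (Ddx39 and Ddx39b), 2 DECH, 2 DEIH and 1 DESD. The stretches below belong to members described in the results. Each has 30 bases, 5′ to 3′ on the coding strand, within 1 exon, and the capitals mark the 4 codons of motif II.
Ddx39: tttgtgctaGATGAATGTGACaagatgctg
Ddx21: gttgtcctgGATGAAGTCGACcagatgttg
Ddx28: atagtgctaGATGAAGTAGACacactgcta
Ddx5: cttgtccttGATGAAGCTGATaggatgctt
Ddx42: cttgtgtttGATGAAGCCGATcgaatgttt
Ddx46: gttgttttaGATGAAGCAGACagaatgttt
Dhx8: attatgttgGATGAAGCACACgagaggacc
Dhx15: ataattcttGATGAGGCCCATgaaagaaca
Dhx57: atcattgttGATGAAGTTCATgagaggaca
Dhx9: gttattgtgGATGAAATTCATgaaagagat

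In GRCm38 the Ddx39 stretch lies at chr8:83721101-83721130 on the plus strand, in exon 5, and that of Ddx28 at chr8:106010549-106010578 on the minus strand, in exon 1. The Ddx21 stretch lies at chr10:62591872-62591901 on the minus strand, in exon 6. Those of Ddx5 and Ddx42 lie on chromosome 11, at chr11:106785184-106785213 on the minus strand in exon 7 and at chr11:106238565-106238594 on the plus strand in exon 11. The stretch of Ddx46 is at chr13:55660749-55660778 (plus strand, exon 14) and that of Dhx8 at chr11:101752131-101752160 (plus strand, exon 14). The stretch of Dhx15 is at chr5:52171487-52171516 (minus strand, exon 4), that of Dhx57 at chr17:80267523-80267552 (minus strand, exon 9) and that of Dhx9 at chr1:153468880-153468909 (minus strand, exon 14). These members differ in the last 2 codons in capitals, and Dhx15 also has GAG where the others have GAA.

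A pair of start regions, from RefSeq (GRCm38.p6), gives examples of members that start at or near a gene on the other strand, with and without shared exon bases. Ddx59 starts inside an exon of 9230116N13Rik, a noncoding gene on the other strand, and the capitals mark its first 30 exon bases, which both genes share. The stretch is chr1:136415021-136415300 on the plus strand. Ddx5 starts 66 bases from Cep95, which runs the other way, and those 66 bases are given from the Cep95 end to the Ddx5 end (chr11:106789186-106789251, minus strand). The capitals there mark CCAAT as read on the other strand.
Ddx59: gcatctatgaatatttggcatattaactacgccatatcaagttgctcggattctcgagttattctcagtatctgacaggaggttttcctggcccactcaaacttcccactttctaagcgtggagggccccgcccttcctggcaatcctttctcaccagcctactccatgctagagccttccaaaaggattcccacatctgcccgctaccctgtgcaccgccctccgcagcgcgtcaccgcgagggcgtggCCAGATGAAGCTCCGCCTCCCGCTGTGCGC
Ddx5: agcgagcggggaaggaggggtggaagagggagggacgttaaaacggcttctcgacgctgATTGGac

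Start regions of 250 bases before and 50 after the gene start were matched for 45 members, and 3 motifs were searched on both strands. GGGCGG (GC box) stood in 29 of the 45 and in 35.9% of all 27025 start regions, and the Ddx59 region held it 2 times. CCAAT stood in 23 of the 45 and in 37.9% of all regions, and once in the Ddx5 region. TATAAA stood in 2 of the 45 and in 14.2% of all regions. No motif contains another, and overlap between matches was not removed.

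The libraries held 1804217 to 2711948 counts in 12398 to 14083 genes. A count is that of a gene on the strand the counting selected. In each library 92.2% to 95.9% of counts lay in the 8189 genes with exons that overlap those of another gene on the opposite strand, so a level here is not read as the expression of the gene, and the cause of that distribution was not tested. CT010467.1, a ribosomal RNA gene, took 1.02%, 1.14%, 28.6% and 14.4% of the counts of replicates 1 to 4. No pair of libraries agreed within sampling noise (chi-square per degree of freedom of 2.23 for replicates 1 and 2, and of 30.9 to 69.5 for the other pairs).

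Markers were checked on the same scale, TPM (counts per exon length brought to a common sum per library). The test of level set each gene against 1 TPM (limma, adjusted p under 0.05). Of 12 T cell markers, 9 were called above 1 TPM, against 32.1% of all genes tested, with Cd247 (159 ± 21.7 TPM), Trac (15.2 ± 10.01) and Trbc2 (13.7 ± 9.44) highest (SD, n = 4), and their summed TPM was 158 to 311. Of 10 T-helper 2 markers, 5 were called above, led by Ptgdr2 (54.7 ± 10.8), Irf4 (15.9 ± 8.15) and Il4 (14 ± 1.5). Cd247 shares 3007 exon bases with Pou2f1 and Ptgdr2 shares 1031 with Ccdc86. The cytokine genes Il5 and Il13 were called below 1 TPM, and Il1rl1 and Maf had no count. The B cell genes Ms4a1, Cd79b and Pax5 had no count, and Cd79a had 5.92 ± 1.52 TPM and was called above 1 TPM. Of 5 myeloid markers, Lyz2, Itgam and Adgre1 had no count. Cd68 had 6.29 ± 3.19 TPM, and Csf1r, which shares 871 exon bases with Hmgxb3, had 148 ± 21.7. These 2 of the 5 were called above 1 TPM, against 32.1% of all genes tested. Cd8a had no count and Cd8b1 was not called. Of 5 germ cell markers only Sycp3 (13.9 ± 1.72 TPM), which shares 660 exon bases with Chpt1, had counts, and it was called above. Summed TPM was 4.96 to 8.16 for the B cell genes named, 127 to 179 for the myeloid list, 1.22 to 2.19 for the CD8 list and 11.4 to 15.4 for the germ cell list. Their part in the helicase levels was not tested.

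The 52 members together held 0.138% ± 0.0321 of all counts (SD, n = 4), and 42 to 48 of them had a count in a given library. The members fell into 3 sets by their place in the genome. No exon base was shared with an opposite gene in 40 members, 50 or more were shared in 11, and Ddx17 shared 33. Ddx39, an mRNA export helicase, alone made up 29.1% to 43.5% of the members' counts.

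Of the 52 members, 27 were called above 1 TPM, against 32.1% of the 17203 genes tested, and 4 were called below, against 26.6%. A further 18 were not called, and Ddx4, Ddx60 and Dhx58 had no count in any library and were not tested. The 49 members tested had a median of 3.47 TPM, and all genes tested had 1.14. Among members that shared no exon bases, 20 of 40 were called above and 3 below, against 18.8% and 31.7% of tested coding genes with no shared bases. Their tested members had a median of 3.15 TPM, and those coding genes had 0.687. Among members that shared at least 50 bases, 7 of 11 were called above and 1 below, against 50.9% and 18.1% of tested coding genes with such a partner. Their median was 8.29 TPM over those tested, against 2.62 for those coding genes. The 11 include Dhx58, which was not tested, and the noncoding Dhx58os, called above at a mean of 8.58 TPM. The shares set beside them are over tested coding genes only. Without replicate 4, 31 members were called above and 3 below, and 38.9% of all genes were called above. Without replicate 1, 2 or 3, 23 members were called above, and without replicate 3 only 1 was called below.

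**Figure D1:**
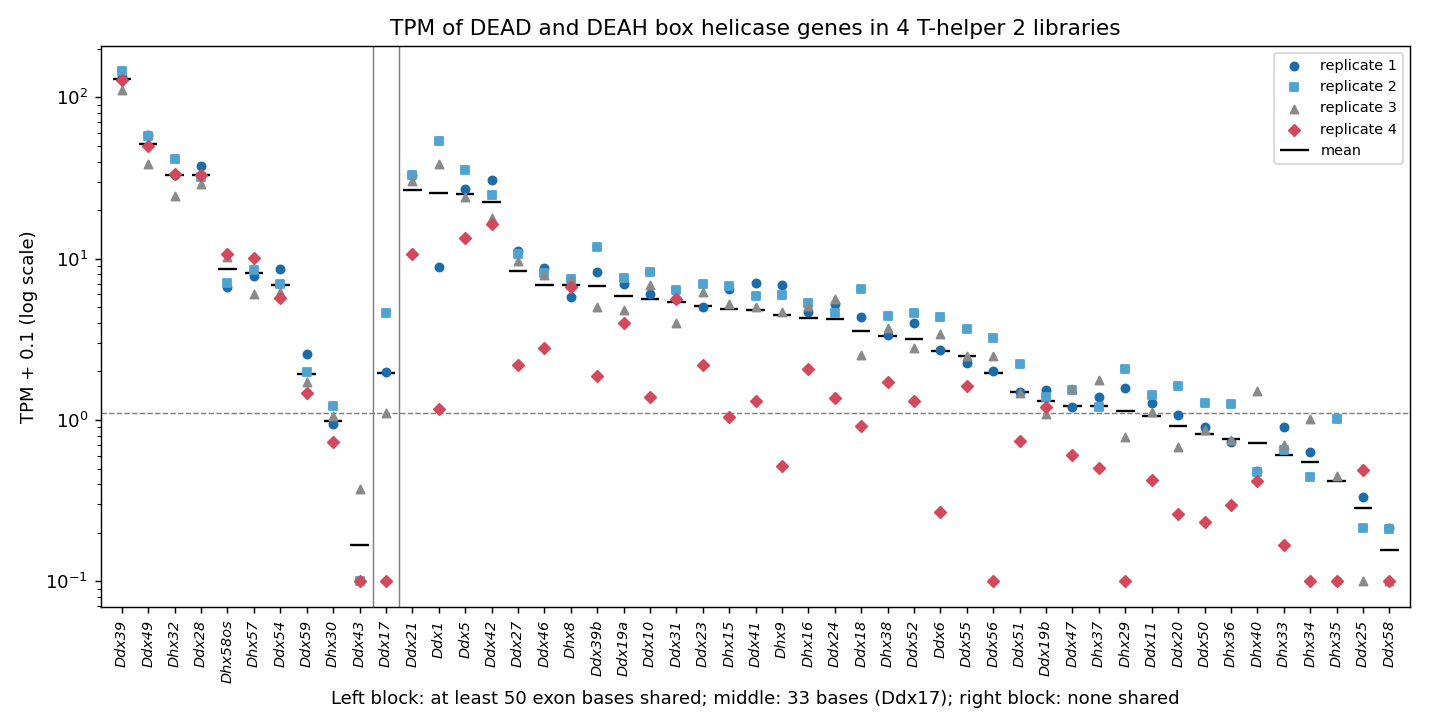
TPM + 0.1 on a log axis for the 49 members with a count, by library, with the mean of 4 libraries as a bar and 1 TPM as a dashed line. Members sharing at least 50 exon bases stand in the left block, Ddx17 in the middle and members sharing none in the right block, where the point of replicate 4 is the lowest for most genes.

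The highest level belonged to Ddx39. It had 133, 145, 111 and 129 TPM in replicates 1 to 4. The mean stood 6.87 ± 0.12 above 1 TPM on the log2(TPM + 0.1) scale (SE, n = 4; limma adjusted p = 8.94e-11). Ddx49, a nucleolar helicase, followed with 58.2, 57.4, 38.7 and 49.6 TPM. Every library had Ddx39 above Ddx49, and the ranges of the pair did not overlap. Dhx32, the member with no motif II match, had 33.1, 41.4, 24.3 and 33.2 TPM. Ddx28, which helps assemble the mitochondrial ribosome, had 37.3, 31.9, 28.8 and 33 TPM. The levels of Ddx49, Dhx32 and Ddx28 overlapped from one to the next. These 4 highest members all shared at least 50 exon bases with an opposite gene.

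The next 4 members in order shared no exon bases. Ddx21, a nucleolar helicase that acts on ribosomal RNA, had 32.8, 32.9, 30.1 and 10.5 TPM. Ddx1, part of the tRNA ligase complex, had 8.74, 53.4, 38.5 and 1.07 TPM. Its libraries differed by far more than those of any neighbour in the order. Ddx5, a coactivator of transcription that also helps process miRNA, had 26.9, 35.4, 24 and 13.4 TPM. Ddx42, which binds a part of the U2 spliceosome particle, had 30.7, 24.6, 17.7 and 16.4 TPM. Replicate 4 was the lowest library for each of the 4 genes. Ddx42 was apart from the next member, Dhx58os, which had 6.62, 6.96, 10.2 and 10.5 TPM. Ddx27, a factor for the large ribosomal subunit, had 11.1, 10.5, 9.51 and 2.09 TPM. Dhx57, Ddx46, Ddx54, Dhx8 and Ddx39b followed with means of 6.65 to 7.99 TPM, and each overlapped the next. All of these were called above 1 TPM. For Ddx1 the call (limma adjusted p = 0.0288) did not pass without replicate 1, 2 or 3 (adjusted p of 0.119 to 0.179).

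Helicases of ribosome biogenesis made up 16 members, of which 10 were called above 1 TPM and none below, against 32.1% and 26.6% of all genes tested. Besides Ddx49, Ddx21 and Ddx27 they were Ddx54, Ddx10, Ddx31, Ddx24, Ddx18, Ddx52 and Ddx55, with means of 2.41 to 6.76 TPM. Ddx31, a nucleolar member, was even across libraries with 5.51, 6.28, 3.92 and 5.52 TPM. The 6 members not called were Ddx47, Ddx50, Ddx51, Ddx56, Dhx33 and Dhx37, at means of 0.508 to 1.86 TPM. Ddx50 is a close relative of Ddx21 and lies near it on chromosome 10, and averaged 0.720 ± 0.432 TPM against 26.6 ± 10.8 for Ddx21 (SD, n = 4 each).

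Of 10 spliceosome helicases, 9 were called above 1 TPM and 1 below, against 32.1% and 26.6% of all genes tested. They work in sequence in the splicing cycle. Ddx46 and Ddx42, of the early steps at the branch site, averaged 6.79 ± 2.75 and 22.3 ± 6.65 TPM. Ddx39b, which also acts in mRNA export, averaged 6.65 ± 4.27 TPM. Ddx23, which lets the U6 particle replace U1, averaged 4.98 ± 2.08 TPM. Dhx16 and Dhx38, the helicases that remodel the spliceosome before each catalytic step, averaged 4.19 ± 1.51 and 3.21 ± 1.14 TPM. Dhx8, which releases the spliced mRNA, averaged 6.73 ± 0.815 TPM, and Dhx15, which takes the spent spliceosome apart, averaged 4.79 ± 2.66. Ddx41 averaged 4.72 ± 2.49 TPM. The errors of these means are SDs over 4 libraries. Dhx35 was the exception, with 0, 6, 3 and 0 counts and a call below 1 TPM (limma adjusted p = 0.0457). That call rests on 9 counts in all, and Dhx35 was not tested where a mean count of at least 10 was asked.

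Among 7 helicases of export, decay and translation, Ddx39 and Ddx19a were called above 1 TPM and Ddx25 below, against 32.1% and 26.6% of all genes tested. Ddx19a and Ddx19b, close copies next to each other on chromosome 8 that release mRNA at the nuclear pore, averaged 5.73 ± 1.73 and 1.20 ± 0.205 TPM. Reads that fit both could be split or dropped by the counting, so their levels are uncertain. Ddx6, a repressor of translation and activator of decapping, had 2.63, 4.24, 3.30 and 0.167 TPM and was not called. Dhx29, a factor of translation initiation, and Dhx34, of nonsense-mediated decay, averaged 1.03 and 0.448 TPM and had no count in replicate 4. Ddx25, a testis helicase, had 2, 1, 0 and 4 counts.

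Of 6 helicases of transcription, miRNA processing and RNA-protein assembly, Ddx1 and Ddx5 were called above 1 TPM, and none below, a share near the 32.1% of all genes tested. Dhx9, also called RNA helicase A, had 6.76, 5.86, 4.58 and 0.420 TPM and was not called (limma adjusted p = 0.0662). Ddx17, the paralog of Ddx5, had 1.88, 4.50, 1.01 and 0 TPM. Ddx20, a partner of the SMN complex, and Dhx36, which unwinds G-quadruplexes, averaged 0.814 and 0.661 TPM.

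Helicases that sense viral RNA were near or at 0. Ddx58, which encodes RIG-I, had 1, 1, 0 and 0 counts and was called below 1 TPM. Ddx60 and Dhx58 had none in any library, which allows up to 3 counts, or 1.11 to 1.66 CPM (counts scaled to the library's total) by library. Such limits cover counting error only. The germ line members were as low. Ddx4, the mouse vasa gene, had no count, and Ddx43 had 0, 0, 1 and 0 and was called below. Of the rest, Dhx30, a mitochondrial RNA granule protein, Ddx11, a DNA helicase of sister chromatid cohesion, Dhx40 and Ddx59 were not called, at means of 0.625 to 1.84 TPM.

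**Figure D2:**
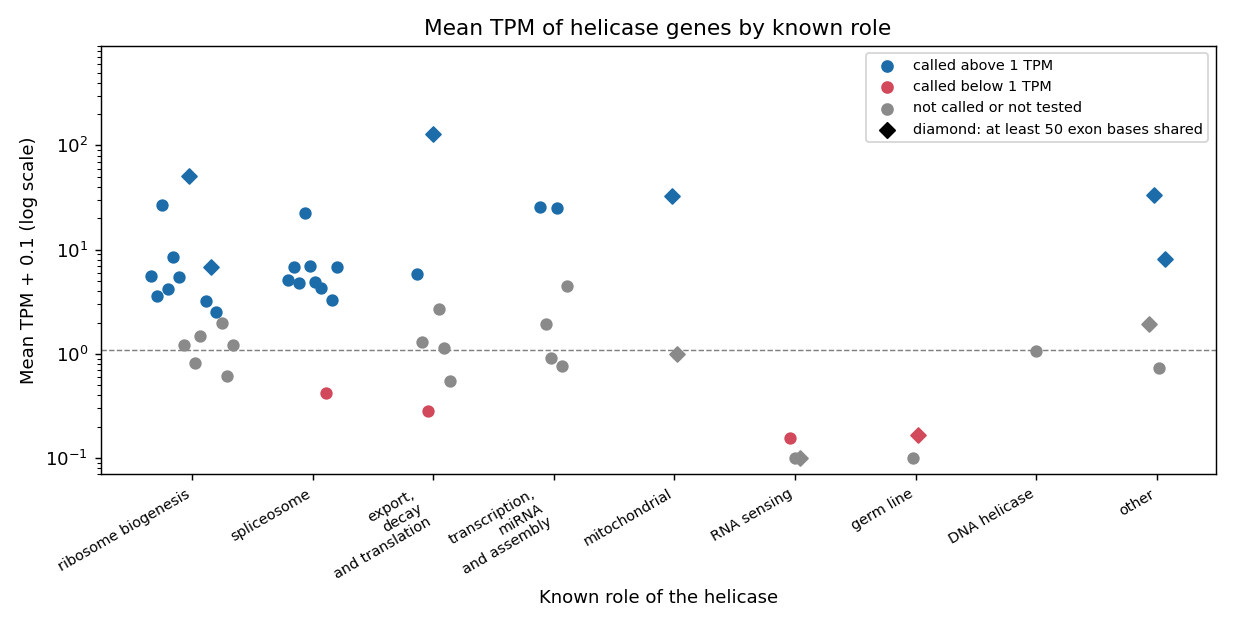
Mean TPM + 0.1 over 4 libraries, on a log axis, for each helicase gene by known role, coloured by its call against 1 TPM (dashed line), with diamonds for genes that share at least 50 exon bases with an opposite gene. Of 10 spliceosome helicases 9 were called above 1 TPM, against 32.1% of all genes tested, and of the 5 genes for RNA sensing and the germ line 2 were called below and 3 had no count and were not tested.

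Genes that work with these helicases were counted from lists. Of 17 other RNA helicases matched, 8 were called above 1 TPM and 2 below, against 32.1% and 26.6% of all genes tested, with a median of 1.33 TPM. The highest were the translation factors Eif4a2 (71.6 ± 20.04 TPM) and Eif4a1 (18.2 ± 11.3) and the exon junction helicase Eif4a3 (9.83 ± 5.13; SD, n = 4 each). Eif4a2 shares 194 exon bases with Rfc4 on the other strand, and Eif4a1 and Eif4a3 share none. Ifih1, which encodes the RNA sensor MDA5, and Mov10 were called below, and Tdrd9 had no count. Of 34 cofactors, 20 were called above and none below, against the same shares, with a median of 5.77 TPM. Edc3, a partner of Ddx6 in decapping, averaged 250 ± 27.7 TPM, Thoc1, of the THO export complex, with which Ddx39b acts, 103 ± 20.2, and Tfip11, an activator of Dhx15, 86.7 ± 14.3. All 3 shared exon bases with an opposite gene, as did 12 of the 34 by 50 or more.

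Opposite the 11 members with at least 50 shared exon bases stood 10 genes that are no members. Ddx54 had a pair of partners, and Dhx58 and Dhx58os were each other's partner, so that 11 pairs were tested among 3440 in all. In each pair the difference of log2(count + 0.5) was taken within each library, member minus opposite gene (for Dhx58 and its antisense gene, Dhx58 minus Dhx58os). All 11 pairs were called (limma, adjusted p under 0.05), against 80.2% of the 3440 pairs in either direction. The member was higher in 5 and lower in 6. Over all pairs, the longer gene was higher in 30.8% and lower in 49.4%. That is another measure, because Ddx28, Ddx49 and Ddx59 are the shorter gene of their pair.

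Ddx39 (chr8:83715177-83726892, plus strand) meets Adgre5, which codes for the adhesion receptor CD97, tail to tail and shares 895 bases, 17.4% of its exon length, with it. Ddx39 had 843, 940, 950 and 986 counts, against 311, 244, 256 and 315 for Adgre5. The difference was 1.73 ± 0.21 (SE, n = 4; limma adjusted p = 0.000773). Ddx49 (chr8:70292866-70302489, minus strand) lies tail to tail with Homer3, a scaffold protein gene, and shares 874 bases. Here the member was the lower gene, with 210, 212, 188 and 216 counts against 1593, 1723, 1737 and 1853 for Homer3. The difference was -3.06 ± 0.18 (adjusted p = 6.3e-05, limma). The ranges of both pairs lay far apart in opposite directions. Dhx32 (chr7:133720942-133782726, minus strand) shares 204 bases with Bccip, a BRCA2-binding protein gene, also tail to tail. It had 170, 218, 168 and 206 counts, against 45, 47, 69 and 29 for Bccip, a difference of 2.05 ± 0.31.

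Ddx54 (chr5:120612739-120628592, plus strand), a nucleolar helicase, holds the antisense gene Gm43579 within its span, with 869 shared bases that are 66.5% of the exon length of Gm43579. Ddx54 had 64, 53, 62 and 51 counts, against 2443, 2682, 2658 and 2975 for Gm43579. The difference was -5.54 ± 0.24. With Cfap73, a cilia protein gene that overlaps its end by 78 bases, Ddx54 differed by 0.96 ± 0.23 (limma adjusted p = 0.0127), at 24, 34, 34 and 26 counts for Cfap73. On the log2(TPM + 0.1) scale, which sets each gene per length, that difference was -1.75, and on counts without replicate 1 it was 0.82 (adjusted p = 0.0528).

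Ddx28, a gene within the span of Dus2 (a tRNA dihydrouridine synthase), shares 72 bases with it at chr8:106011507-106011578. It had 104, 91, 108 and 111 counts, against 0, 1, 2 and 1 for Dus2. Over the 4 libraries the ratio was 104, with a 95% exact conditional binomial interval of 40.1 to 382 that covers counting error only. Dhx57 lies head to head with Morn2, a gene of a small protein with MORN repeats, and shares 126 bases. It had 48, 54, 50 and 75 counts, against 0, 2, 1 and 0 for Morn2, a ratio of 75.7 (25.6 to 370). In both pairs the member held nearly all the counts.

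In the other pairs the member was lower. Dhx30 lies head to head with Smarcc1, a chromatin remodelling subunit, with 123 shared bases. It had 11, 15, 17 and 10 counts against 92, 88, 84 and 27 for Smarcc1, a difference of -2.30 ± 0.32. Ddx59, whose start is printed above, had 9, 7, 8 and 6 counts against 29, 37, 42 and 67 for 9230116N13Rik, a difference of -2.41 ± 0.33. Replicate 4 was the lowest for Smarcc1 and the highest for 9230116N13Rik. Ddx43 had 1 count in all, against 7, 2, 7 and 16 for 4930542C12Rik, the antisense gene over 350 bases of its start, a ratio of 0.0312 (0.000768 to 0.187). Dhx58 had no count, against 13, 14, 27 and 25 for Dhx58os, and was at least 26.3-fold lower by a floor of 3 counts over the 4 libraries. Ddx17, below the limit of 50 bases, had 11, 27, 8 and 0 counts against 11, 11, 4 and 11 for Kdelr3.

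**Figure D3:**
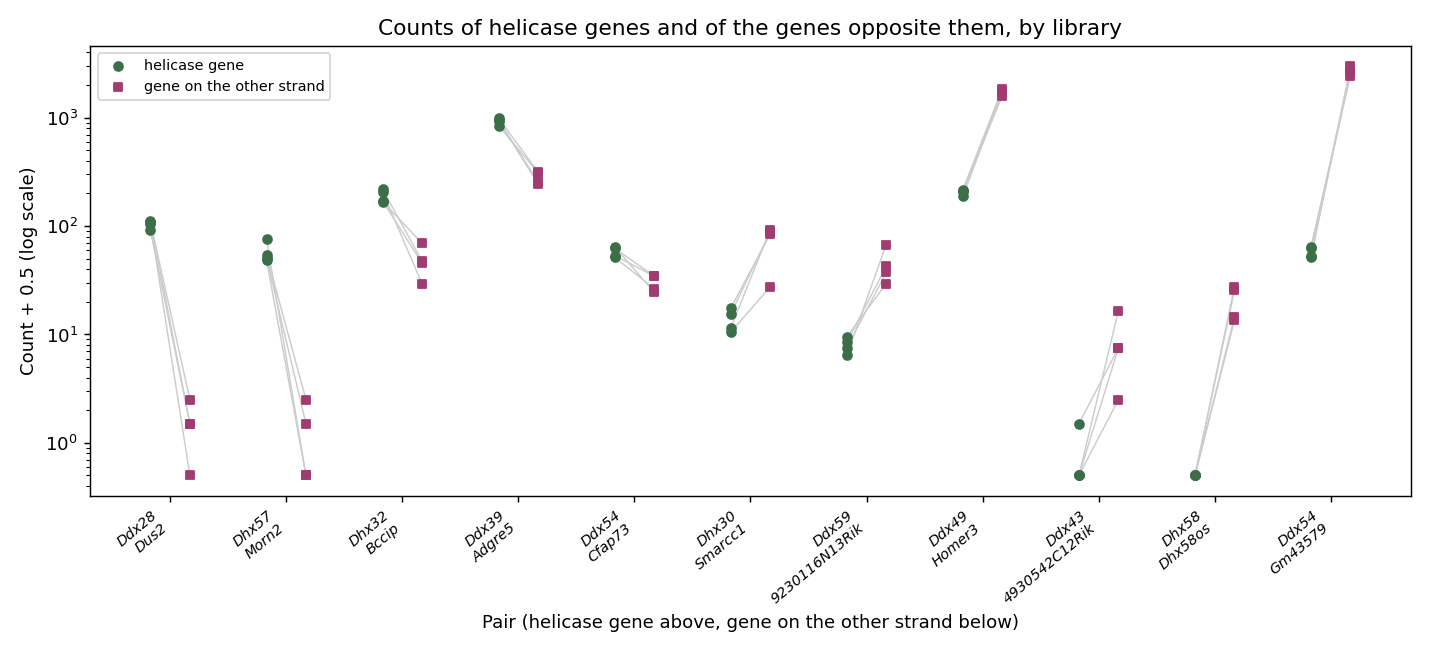
Counts + 0.5 on a log axis for each helicase gene (green circles) and the gene on the other strand that shares at least 50 exon bases with it (purple squares), with a line for each of the 4 libraries. The helicase gene is higher in the 5 pairs on the left and lower in the 6 on the right, and in no pair do both genes' ranges overlap.

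Replicate 4 stood apart from the other libraries at members with no shared exon bases. The deviation of a library was its log2 CPM minus the mean of the other 3, for genes that had 10 or more counts in all of those 3, and it was given no test. In replicate 4, 18 of 24 members with no shared bases were more than 1 lower, against 55.9% of 2115 genes of that kind. The members' median was -1.53, and that of all such genes was -1.24. None of the 8 members that shared at least 50 bases was more than 1 lower, against 9.52% of 3150 such genes, and their median was 0.07. In replicates 1, 2 and 3, none of 15 members with no shared bases and none of 8 sharing at least 50 was more than 1 lower. Ddx1, Ddx6, Ddx10, Ddx18, Ddx24, Ddx41, Ddx50, Ddx52 and Dhx9 had under 10 counts in replicate 4 and so did not enter there. The shares of all genes with no shared bases that were lower in replicates 1, 2 and 3 were 1.51%, 1.66% and 7.27%, and those of genes with at least 50 shared bases were 1.04%, 0.572% and 4.51%.

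In counts, Ddx21 had 209, 215, 259 and 81 in replicates 1 to 4. Ddx5 had 191, 258, 230 and 115, and Ddx42 had 160, 131, 124 and 103. Ddx1 had 27, 169, 160 and 4. Ddx42 was within 1 of the other libraries on the log2 scale, Ddx5 was just past it at -1.02, and Ddx1 was the lowest of the 24 at -4.39. Dhx9 had 80, 71, 73 and 6 counts, a deviation of -3.59. Dhx15 had 67, 72, 72 and 12, a deviation of -2.56. Ddx27 had 66, 64, 76 and 15, and Ddx46 had 61, 58, 75 and 23. For Dhx9, Dhx15, Ddx27 and Ddx46 replicates 1 to 3 lay close together and replicate 4 lay below all of them. Ddx6 had 26, 43, 44 and 2 counts, a deviation of -3.95.

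The 6 members with no shared bases that were not more than 1 lower were Ddx19a, Ddx19b, Ddx31, Ddx42, Ddx55 and Dhx8. Dhx8 had 35, 47, 61 and 49 counts and Ddx31 had 24, 28, 23 and 29, so replicate 4 was among the others in both. Ddx42 ends 2 bases from Ftsj3 and Ddx31 starts 45 bases from Gtf3c4, genes on the other strand. Ddx5, Ddx21, Dhx16 and Dhx38 also lie within 100 bases of such a gene and were more than 1 lower. Ddx19a, Ddx19b, Ddx55 and Dhx8 lie 552 to 2515 bases from one. The other lower members lie 157 (Dhx15) to 84952 bases (Ddx52) from one, or overlap the span of such a gene (Ddx6 and Ddx10). These distances overlap those of the members that were not more than 1 lower. Distance was looked at after the data had been seen, and its part was not tested. With TMM factors, which move all genes of replicates 3 and 4 by 0.26 and 0.16 and those of replicates 1 and 2 by -0.19 and -0.24 on the log2 scale, 16 of the 24 were more than 1 lower, without Ddx5 and Dhx38, against 50.4% of all 2115 genes with no shared bases.

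Summed over the 40 members with no shared bases, CPM was 714, 866, 601 and 269 in replicates 1 to 4. Over the 11 members with at least 50 shared bases it was 816, 869, 582 and 777. Members with no shared bases thus took 25.7% of the members' counts in replicate 4 and 46.5% to 50.7% in the others. Without Ddx1 the sum over members with no shared bases was 699, 774, 542 and 267 CPM. The part of ribosomal RNA reads in these values was not tested.

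**Figure D4:**
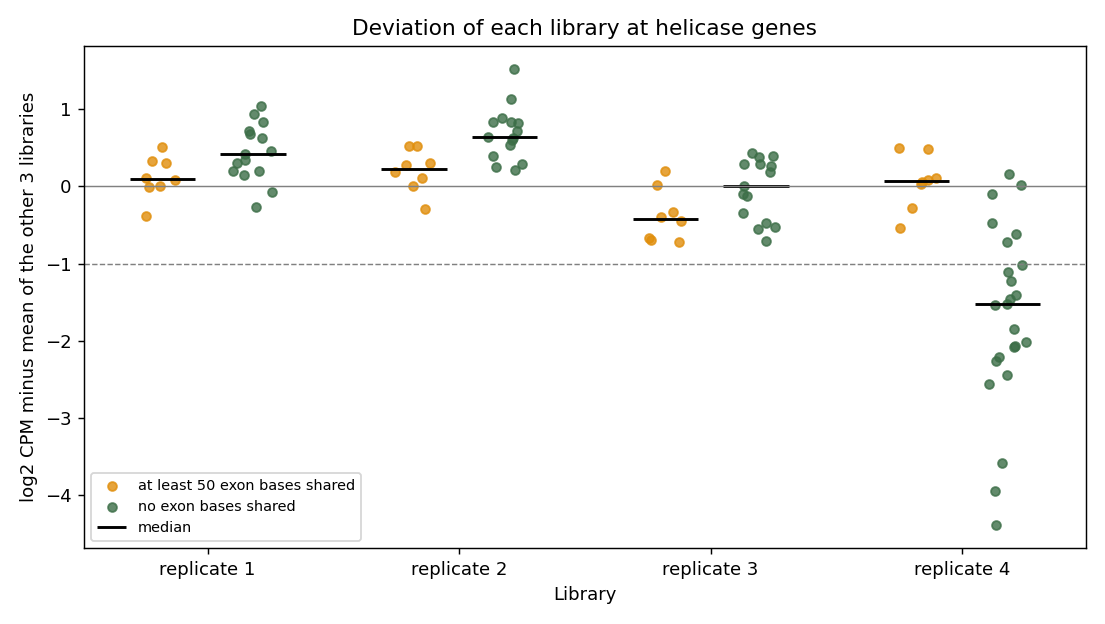
Deviation of each library from the mean of the other 3, in log2 CPM, at members that had 10 or more counts in all of the other 3. Members sharing at least 50 exon bases (orange) lie within 1 of 0 in all 4 libraries, and those sharing none (green) have a median of -1.53 in replicate 4, with the dashed line at -1.

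The spread of each gene was set against the trend over all genes (edgeR quasi-likelihood, upper tail). Of 20 members that passed edgeR's expression filter, 0 were called at an adjusted p under 0.05, against 0% of 4190 genes. At an unadjusted p under 0.05 there were 2 members, Ddx21 and Dhx15, among 268 genes, by edgeR with 4 libraries. That filter asks for enough counts in all 4 libraries. Members with few counts in replicate 4, such as Ddx1, Ddx6 and Dhx9, did not pass it, and the 0 does not cover them. With all genes that had a count, 5 of 49 members were called, against 345 of 17203 genes. Ddx1 was lowest in edgeR's adjusted p at 7.59e-16, followed by Dhx9, Ddx6, Ddx21 and Dhx15. DESeq2 marked 27 of 17203 genes as dispersion outliers, with Ddx1 among them and no other member. Without replicate 4, Ddx1 was 1 of 20 genes called by edgeR among 5007 tested (adjusted p = 1.1e-11). Ddx1 was uneven also among replicates 1 to 3, at 27, 169 and 160 counts, and no other member was called without replicate 4.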

How the data were processed

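The authors counted fragments with featureCounts 1.4.6-p4 over exons of GENCODE M13 genes on mm10, on paired fragments whose ends both aligned, with strand setting 1, per the file headers and labels. The deposited values are raw counts, not normalized, with each gene's summed exon length. Total RNA-seq is the assay in the labels, though the name of the protocol they link to speaks of poly(A) RNA. Symbols matched 50376 of 50600 gene IDs. Members and lists were chosen with earlier results of these data known.

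TPM was computed from counts and exon lengths. Level was tested with limma 3.58.1 on log2(TPM + 0.1), two-sided, over the 17203 genes with a count. Spread was tested with edgeR 4.0.16 (robust quasi-likelihood fit with an intercept only, TMM factors, default filter). Pairs were all genes on opposite strands that share at least 50 exon bases, tested with limma. Adjustment was Benjamini-Hochberg over all genes or pairs, at 0.05. DESeq2 1.42.0, R 4.3.3 and Python 3.11.15 were also used. All 3 tests were tested on simulated counts. Depth was 1804217 to 2711948 counts per library.

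Values of every library were given for the 10 members highest in mean TPM, the 10 members with the highest counts opposite them and the 8 members highest in count with no shared bases. The 3 genes highest in mean TPM were named from each list, and 1 listed marker is not reported here. Other values of a library were chosen after they were seen. Alternatives were other pseudocounts, levels, filters, scalings, tools and limits of shared bases, and each replicate left out. GENCODE M21 exons, the distance to the nearest gene on the other strand and members with no shared bases alone were added once the data were known. Sequences came from GENCODE M21 transcripts and RefSeq start regions.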

Additional observations from a re-analysis of the deposited data

Results flagged for a closer look

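In 4 of the 49 members with counts, 1 library lay apart from the other 3 by Dixon's 95% criterion on TPM, whose nominal rate is about 1 in 20. The share over all genes was not counted. A gene with counts in 1 library alone, such as Ddx43, always meets the criterion, so no excess is read from the 4. Ddx21 had 10.5 TPM in replicate 4, against 30.1 to 32.9 in the others. Ddx46 had 2.69 TPM in replicate 4, against 7.86 to 8.62. Both lie with the members that share no exon bases and were lower in that library. Dhx40 had 1.42 TPM in replicate 3, from 10 counts, against 0.318 to 0.384 in the others, from 2 counts each. Ddx43 had 0.273 TPM in replicate 3, which was 1 count, and was 0 in the others.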

How the results depend on the processing

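No paired analysis was possible because the study has 1 group. The number of members called below 1 TPM was 4 in the main analysis. It was 2 with a pseudocount of 0.01 TPM, 2 against 0.5 TPM, 11 against 2 TPM, 0 with a mean count of at least 10 and 7 with no filter. Leaving out 1 replicate gave 1 to 3 below and 23 to 31 above. For the spread, 0 members were called, 5 with any gene that had a count, 1 by DESeq2, and 0 to 1 with 1 replicate left out, where Ddx1 was the 1 without replicate 4. With pairs of at least 200 shared bases the member was higher in 2 and lower in 3, of 5 pairs left to test, and with 1 replicate left out in 4 to 5 and in 6. Ddx54 minus Cfap73 changed sign to -1.75 on the TPM scale, which divides by exon length. With GENCODE M21 exons, chosen after the data had been seen, Ddx41 gains a partner, Gm46416, and 1 of 9 members sharing bases was more than 1 lower in replicate 4. The other counts of members and calls kept within 1.5 times or on their side of the threshold, except that Ddx1 lost its call above 1 TPM with a pseudocount of 0.01, against 2 TPM, with no filter and without replicate 1, 2 or 3, and that Ddx54 minus Cfap73 lost its call without replicate 1. Of all genes tested, 80.6% were called above 1 TPM with a mean count of at least 10 and 11.5% with no filter, against 32.1% in the main analysis. For the spread, all genes called were 345 with any count, 8 with a mean CPM of at least 1, 27 by DESeq2 and 20 without replicate 4, against 0. At these depths 26 of the 49 members with counts had a mean under 20 counts, which limits the precision of their levels.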
